A study of Homo sapiens with 6 samples.

Results

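In MDA-MB-231, a human triple-negative and mesenchymal-like breast cancer cell line, 131 genes of the 23228 in the deposited count table were almost unread in the libraries with a scrambled hairpin and clearly read in the libraries labelled SCUBE3 knockdown. The genes were chosen from these values: at most 3 reads summed over the 3 scramble libraries, and a mean of at least 1 CPM (counts per 1000000 reads assigned to genes in the library) over the 3 knockdown-labelled libraries. Symbols that start with HLA-, MAGE, PCDH, ZNF or LINC were left out, and so were 6 further symbols, which removed 18 of the 149 genes that met both limits. For the knockdown-labelled libraries the cells had received lentivirus with a short hairpin RNA (shRNA) against SCUBE3, whose protein carries EGF-like repeats and is secreted or held at the cell surface, and for the scramble libraries lentivirus with a scrambled shRNA. Both groups were grown in DMEM with fetal bovine serum and selected with puromycin for a week. There were 3 libraries in each group. The sources used here do not give the hairpin's sequence or the number of integrations, nor whether the cells were a clone or a pool.

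A gene with 0 reads over the 3 scramble libraries may still be transcribed at up to 0.044 CPM, the level of 3 reads over the group, and the set is one of genes at or near that floor. The 131 genes belong to no single pathway. They include chemoattractant and endothelin peptides, G protein-coupled receptors, epithelial proteases and their inhibitors, apical membrane proteins, glycan-building enzymes, inflammasome and cell death genes, factors of epithelial and retinoid regulation, small GTPase and filament genes, and pregnancy-specific glycoproteins that are known from the placenta. As background, breast cancer lines of the mesenchymal kind are known for low levels of many genes of polarised epithelium, and several of the genes described here are textbook genes of epithelium, leukocytes or placenta.

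Each library held between 21348509 and 25520901 reads assigned to genes. SCUBE3 itself was not lower under the knockdown label: it had 99, 107 and 101 reads in the knockdown-labelled libraries, against 96, 91 and 80 reads in the scramble libraries, a difference of 0.03 ± 0.14 on the log2 scale (SE; adjusted p = 0.871 by edgeR's quasi-likelihood test). Without scramble replicate 3 the difference was -0.05. These RNA counts do not give the level of the SCUBE3 protein. Each direction below is therefore that of the labels. Across the table, 85.9% of 13606 tested genes passed an adjusted p of 0.05, 43.4% higher and 42.5% lower in the knockdown-labelled libraries, so a call by itself sets no gene apart. The labels name the libraries replicates without saying that they came from separate cultures, so each p-value rests on the spread among libraries alone, and this spread may be technical. Genes known to be read in this line were read in both groups (VIM at 2437 ± 74.1 and 4292 ± 111 CPM, knockdown label first, SD, n = 3 each). The receptor genes ESR1 and PGR had 0 reads in the knockdown-labelled libraries and at most 25 reads in a scramble library, whereas ERBB2, GATA3 and EPCAM, also listed as low, were read in both groups.

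The choice of the 131 genes was a matter of reads, not of a test. Their reads summed to 11809, 12351 and 11646 in the knockdown-labelled libraries, against 44, 56 and 54 in the scramble libraries. As a share of each library this was 482, 484 and 480.3 CPM under the knockdown label, against 1.82, 2.62 and 2.39 CPM in scramble. In the scramble libraries 45 of the genes had 0 reads, 39 had 1, 26 had 2 and 21 had 3. By the rule, no gene could have more than 3 reads in any scramble library. In the knockdown-labelled libraries the fewest reads of any of them was 16, and 112 of the 131 reached 1 CPM in each of the 3 libraries. All 131 entered the test through the knockdown-labelled group and came out higher without overlap between the groups. The choice by these same reads strongly favours this outcome. Of all tested genes, 43.4% were higher and 45.6% were higher with no overlap, and nothing is read from the set's count.

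**Figure D1:**
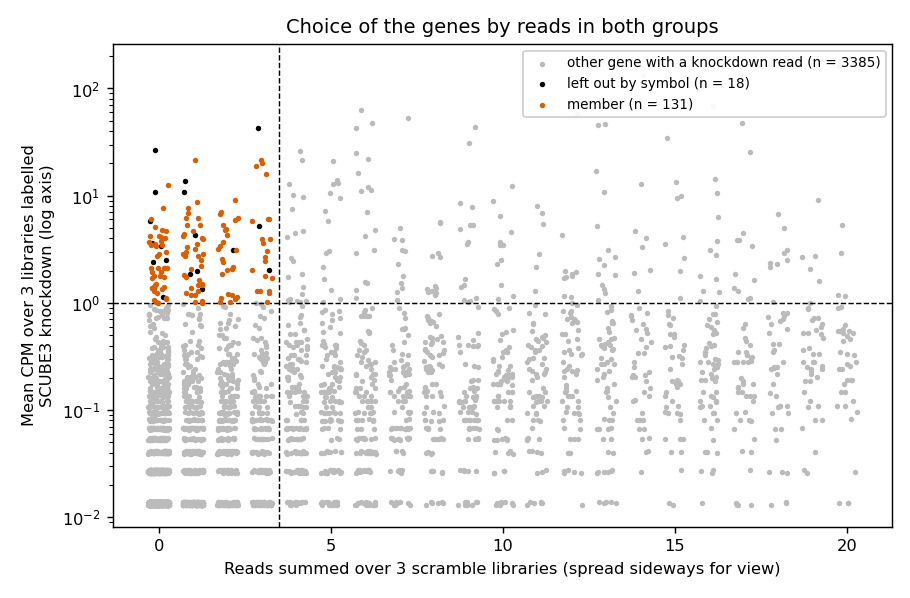
Each point is a gene: reads summed over the 3 scramble libraries on the horizontal axis (0 to 20, spread sideways for view) and mean CPM over the 3 knockdown-labelled libraries on the vertical log axis, with dashed lines at the 2 limits of the rule. The 131 members, in orange, fill the upper left corner next to the 18 genes left out by symbol, and the density of points does not break at either limit.

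Most of the genes were read at a low level even where they were read. Their median mean level under the knockdown label was 2.59 CPM, with quartiles of 1.41 and 4.21 CPM. A mean of 2 CPM was reached by 79, one of 5 CPM by 25 and one of 10 CPM by 6. Both limits cut through a continuous spread. Just inside the level limit lay C6orf223, ACTBL2 and DHRS3 at 1.003, 1.01 and 1.01 CPM, and just outside it AIM1L, RGN and GPNMB at 0.997, 0.971 and 0.968 CPM. At the read limit LGALS12, RHOD and RARRES2 had 3 scramble reads, and GPR176, CLIC3 and SLC15A3 missed it with 4 scramble reads at 21.3, 12.8 and 10.2 CPM under the knockdown label. In all, 19 genes at or above 1 CPM missed the set by a single scramble read. The reverse pattern, at most 3 reads under the knockdown label and at least 1 CPM in scramble, was met by 57 genes, with a median of 2.66 CPM and a highest mean of 34.7 CPM in scramble.

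**Figure D2:**
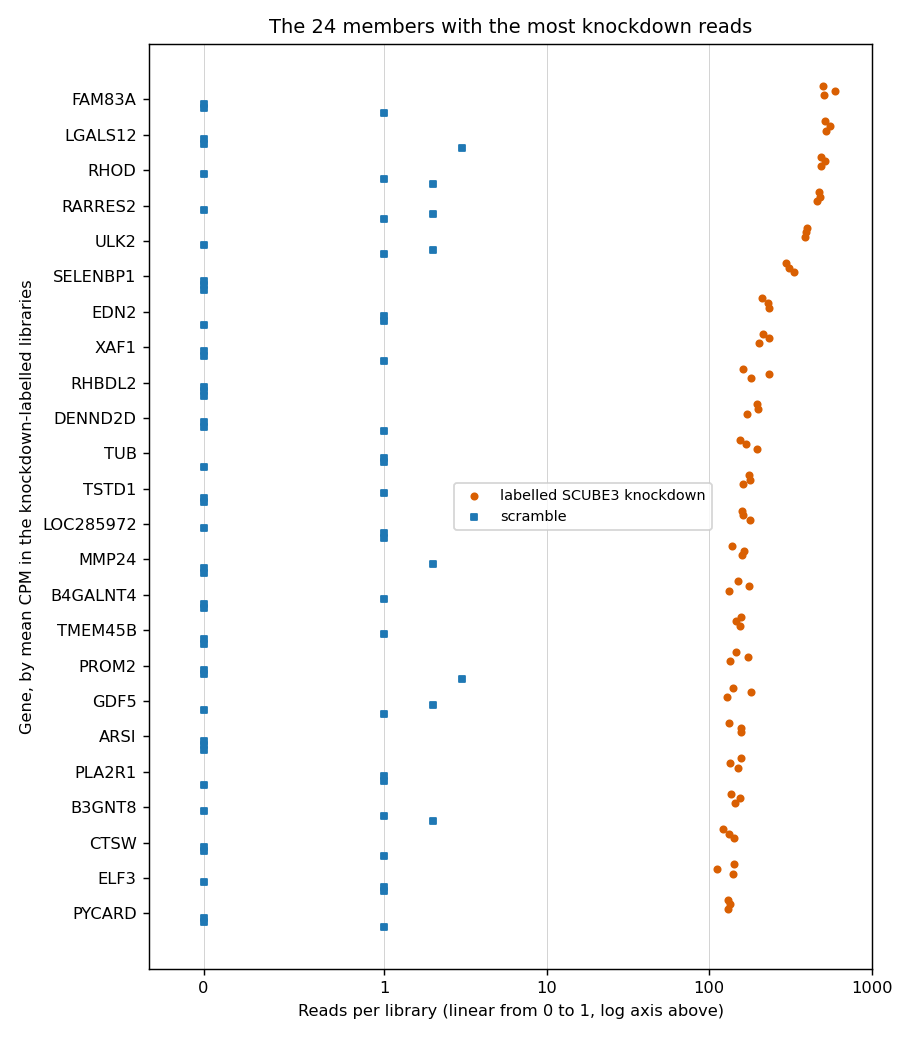
Reads per library (linear from 0 to 1, log axis above) for the 24 members with the highest mean CPM, with the 3 knockdown-labelled libraries as orange circles above the 3 scramble libraries as blue squares. Every orange circle lies at 111 reads or more and every blue square at 3 reads or fewer, the latter fixed by the rule.

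Promoters were compared in RefSeq's GRCh38.p14 sequence, from 250 bases before to 50 bases after the start, which the choice of genes did not use. A sequence was found for 90 of the 131 genes. Their median GC content was 62.8%, beside 62.7% over 16152 genes of the table, but CpG dinucleotides were fewer. The median ratio of observed to expected CpG was 0.506 in the set and 0.763 over all genes. CpG-rich promoters, with a ratio of at least 0.6 and a GC content of at least 50%, made up 41.1% of the set (37 of 90, Wilson 95% interval 31.5% to 51.4%), beside 63.3% of all genes, 81.2% of genes with at least 1 CPM in 3 libraries and 24.6% of genes never read. Of the 57 genes with the reverse pattern 39 had a sequence, and 35.9% of these were CpG-rich, with a median ratio of 0.496. The difference between these shares was not tested.

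**Figure D3:**
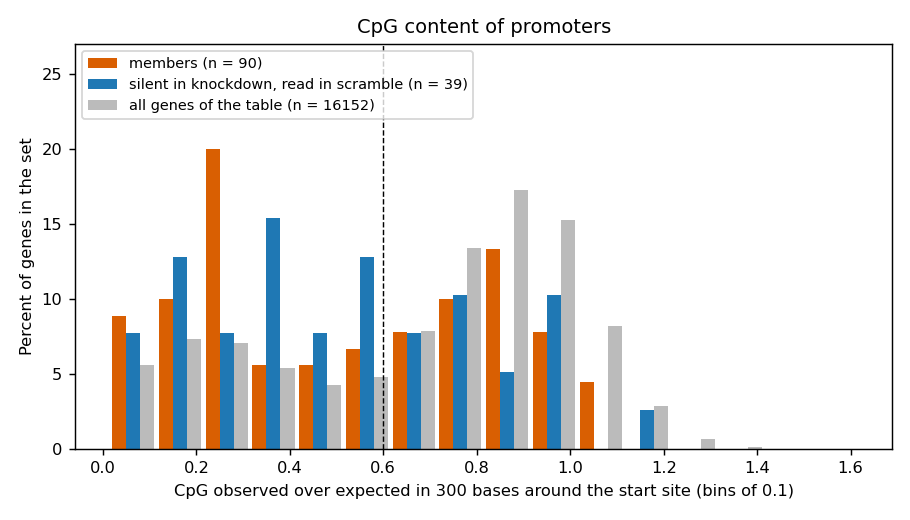
Percent of genes in each bin of 0.1 of the CpG observed over expected ratio, for the 90 members with a promoter (orange), the 39 genes with the reverse pattern (blue) and all 16152 genes of the table with a promoter (grey). The dashed line marks 0.6. The members' tallest bin starts at 0.2 and holds 18 of them, whereas the tall grey bins lie to the right of the line.

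Motifs were searched by their letters on both strands, without merging overlaps between different motifs. The TATA element TATAAA was found in 10.0% of the set's promoters and in 9.42% of all, the E-box CACGTG in 7.78% and 8.90%, the AP-1 element TGANTCA in 6.67% and 5.91%, and the GC box GGGGCGGGG in 21.1% and 22.2%. The core of the interferon-stimulated response element, GAAA followed after 2 further bases by GAAA again, was found in 7 of the 90 promoters (7.78%), beside 3.14% of all. Those 7 belonged to CXCL10, VCAM1, SLC7A7, PAGE5, SLFN12L, EXOC3L4 and LOC152742. A match describes the letters of this window only. The promoters of CXCL10, an interferon-induced chemokine, and VCAM1, a leukocyte adhesion molecule, are shown because they carry that motif, which stands in capitals. The CXCL10 window lies at chr4:76023448-76023747 on the minus strand with the match at 221 bases before the start, and the VCAM1 window at chr1:100719492-100719791 on the plus strand with the match, in reverse, at 15 bases before the start.
CXCL10: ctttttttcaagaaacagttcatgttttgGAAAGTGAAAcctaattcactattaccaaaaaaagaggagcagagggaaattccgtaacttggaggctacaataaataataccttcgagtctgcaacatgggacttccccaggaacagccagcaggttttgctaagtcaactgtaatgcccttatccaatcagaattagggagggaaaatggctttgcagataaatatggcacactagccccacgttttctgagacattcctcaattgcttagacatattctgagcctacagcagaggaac
VCAM1: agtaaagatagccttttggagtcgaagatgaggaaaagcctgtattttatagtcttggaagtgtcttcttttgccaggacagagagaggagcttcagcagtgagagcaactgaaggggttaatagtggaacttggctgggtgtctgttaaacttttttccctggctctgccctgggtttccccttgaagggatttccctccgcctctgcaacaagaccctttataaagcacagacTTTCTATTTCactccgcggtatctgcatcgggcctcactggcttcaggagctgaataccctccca

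ELF3, an epithelial ETS factor, and ULK2, an autophagy kinase, stand for a CpG-poor and a CpG-rich promoter in the set, and their CpG dinucleotides are in capitals. The ELF3 window, at chr1:202010337-202010636 on the plus strand, held 7 CpG at a GC content of 59.0%, a ratio of 0.269. The ULK2 window, at chr17:19867887-19868186 on the minus strand, held 45 CpG at a GC content of 77.0%, a ratio of 1.01. Both genes were read under the knockdown label and nearly unread in scramble, with 2 scramble reads for ELF3 and 3 for ULK2.
ELF3: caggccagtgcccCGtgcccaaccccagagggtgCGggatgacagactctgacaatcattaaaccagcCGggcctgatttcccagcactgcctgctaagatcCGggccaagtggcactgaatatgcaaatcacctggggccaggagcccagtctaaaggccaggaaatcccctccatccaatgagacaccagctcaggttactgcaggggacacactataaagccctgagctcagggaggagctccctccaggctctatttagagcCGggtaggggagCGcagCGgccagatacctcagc
ULK2: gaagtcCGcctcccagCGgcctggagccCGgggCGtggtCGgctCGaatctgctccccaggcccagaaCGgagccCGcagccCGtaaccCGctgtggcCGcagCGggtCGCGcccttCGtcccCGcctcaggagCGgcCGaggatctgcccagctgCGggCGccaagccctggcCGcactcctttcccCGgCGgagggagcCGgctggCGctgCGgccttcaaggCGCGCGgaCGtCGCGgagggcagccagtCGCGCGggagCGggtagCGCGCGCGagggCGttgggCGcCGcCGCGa

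The secreted signals held some of the best-read genes of the set, and receptors for several of them were read as well. RARRES2 encodes chemerin, an attractant of macrophages and dendritic cells that is cut into its active form outside the cell. It had 475, 484 and 459 reads in the knockdown-labelled libraries, against 0, 2 and 1 reads in the scramble libraries. The ratio of the group totals, each scaled to its library reads, was 434, with an exact 95% counting interval of 148 to 2106. Such intervals cover counting error only, since the reads carry no molecular identifiers. They take no account of the choice of the genes by these same reads, which favours high ratios. The lower bounds given below take no account of that choice either. They also use the reads under the knockdown label without their counting error. All 3 genes for chemerin receptors were higher under the knockdown label and none belongs to the set. CMKLR1, the signalling receptor, averaged 5.55 ± 0.421 CPM in the knockdown-labelled libraries and 0.118 ± 0.0265 CPM in scramble (SD, n = 3 each), a log2 fold change of 5.45 ± 0.29 (SE). From here on, differences given for genes outside the set are log2 fold changes of the knockdown label over scramble with their SE. Of 116 such genes named, 113 passed an adjusted p of 0.05 (edgeR quasi-likelihood test), and the largest adjusted p among those was 0.0194. In 112 of the 113 the libraries of the groups did not overlap. Over all tested genes 85.9% passed, and 85.9% did not overlap in either direction. Some of the 116 were picked by adjusted p or after their values were seen, so nothing is read from their count. GPR1 differed by 4.54 ± 0.13 and CCRL2, which binds chemerin without signalling, by 1.96 ± 0.06. EDN2 encodes endothelin-2, a vessel-constricting peptide, and had 210, 231 and 235 reads under the knockdown label, against 1, 1 and 0 reads in scramble. Its receptor genes EDNRA (-1.29 ± 0.19) and EDNRB (-0.74 ± 0.11) were lower, while the converting enzyme genes ECE1 and ECE2 were higher by 1.60 ± 0.03 and 1.34 ± 0.11.

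The other secreted signals were growth factors, cytokines and pathway antagonists between 1.19 and 6.06 CPM. GDF5, a bone and joint morphogen of the BMP family, had 141, 181 and 129 reads in the knockdown-labelled libraries, against 2, 0 and 1 reads in scramble. TFF2, a trefoil peptide secreted with gastric mucus, had 111, 105 and 91 reads under the knockdown label and 0 in every scramble library, which makes it at least 93.9-fold higher (against a floor of 3 reads over the 3 scramble libraries, as for every bound given here). The interleukin-1 family was split across the set, since IL1A, an alarm cytokine, and IL1RN, the natural antagonist of its receptor, both belong to it. IL1A had 112, 93 and 92 reads under the knockdown label and 0 in scramble, and IL1RN had 20, 30 and 38 reads, against 0, 1 and 0 in scramble. The receptor gene IL1R1 was higher by 2.89 ± 0.10 on the log2 scale and that of its accessory chain, IL1RAP, by 0.46 ± 0.08. SOST and SFRP1 encode secreted antagonists of Wnt signalling and TNFSF13 encodes the B cell survival factor APRIL. SOST had 79, 83 and 70 reads, against 0, 1 and 1 reads in scramble, and SFRP1 had 40, 44 and 47 reads and none in scramble. CXCL10, whose promoter was printed with the interferon-response letters, had 46, 37 and 37 reads under the knockdown label, against 1, 0 and 0 in scramble. CXCL11, a ligand of the same receptor, was higher by 5.25 ± 0.38, whereas CXCL9, a further ligand, had 0 reads in all 6 libraries.

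Of the 11 receptors and recognition proteins, PLA2R1, CXCR7, P2RY6 and VCAM1 had the most reads. PLA2R1, a receptor of secreted phospholipases, had 156, 135 and 150 reads in the knockdown-labelled libraries, against 1, 1 and 0 reads in scramble. CXCR7, a scavenging receptor of CXCL11 and CXCL12 now named ACKR3, had 106, 104 and 119 reads, against 0, 0 and 1 in scramble. P2RY6, a receptor of UDP, had 110, 105 and 98 reads, against 0, 1 and 0 in scramble. CXCR4, the other receptor of CXCL12, was read in both groups and was higher under the knockdown label by 2.22 ± 0.06, and CXCL12 had at most 2 reads in a library. VCAM1, the endothelial adhesion molecule to which leukocyte integrins bind and whose promoter was printed for the same letters, had 110, 108 and 94 reads under the knockdown label and 0 in scramble, at least 95.4-fold higher. Of the integrin chains that bind it, ITGA4 had 1 read in all 6 libraries together and ITGB1 was higher by 0.66 ± 0.03. CRTAM, a recognition receptor of activated T and NK cells, had 73, 69 and 77 reads and 0 in scramble, whereas the gene of its ligand, CADM1, was nearly absent under the knockdown label, with 1, 5 and 5 reads there, against 465, 381 and 400 reads in scramble. IL2RB, the beta chain shared by the interleukin-2 and interleukin-15 receptors, had 40, 47 and 39 reads, against 2, 0 and 1 in scramble. IL2RG, the common gamma chain, was higher by 3.39 ± 0.51 and IL15 by 2.80 ± 0.21, and IL2RA, the alpha chain of the interleukin-2 receptor, had 0 reads in all 6 libraries. The remaining receptors were VSTM4, an immunoglobulin-domain protein, F2RL3, a thrombin receptor, PTPRQ, a phosphatase of hair cells, CALCR, the calcitonin receptor, and LYNX1, a modulator of nicotinic receptors, between 1.04 and 3.17 CPM.

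Since several of these genes are known from leukocytes, the markers of other cell types bear on them. PTPRC and CD3E had between 0 and 4 reads in any library of either group, and CD14 averaged 6.31 ± 0.447 CPM in the knockdown-labelled libraries, against 0.230 ± 0.124 CPM in scramble. The 3 leukocyte markers summed to between 6.15 and 6.94 CPM in the knockdown-labelled libraries and between 0.234 and 0.536 CPM in the scramble libraries. Of 4 fibroblast markers 3 were higher under the knockdown label and DCN had 0 reads in all libraries, with sums between 25.9 and 29.4 CPM under the knockdown label and between 4.91 and 6.09 CPM in scramble. Of 3 endothelial markers, PECAM1 was higher by 1.39 ± 0.23, CDH5 and VWF had at most 3 reads in a library, and the sums ran between 2.65 and 2.90 CPM under the knockdown label and 0.797 and 1.44 CPM in scramble. The markers that differed were CD14, COL1A1, COL1A2, PDGFRB and PECAM1, and their part in the results on the members was not tested. In bulk RNA, fewer cells of a type and less RNA per cell cannot be told apart.

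Proteases and protease inhibitors formed another group, with 11 genes between 1.12 and 7.72 CPM, 5 of them without a scramble read. RHBDL2, a rhomboid protease that cuts membrane proteins within the bilayer, had 162, 233 and 180 reads in the knockdown-labelled libraries and 0 in scramble, at least 176-fold higher. MMP24, a membrane-bound metalloprotease, had 139, 165 and 160 reads, against 2, 0 and 0 in scramble. CTSW, a cathepsin known from NK and cytotoxic T cells, had 121, 133 and 143 reads, against 0, 0 and 1 in scramble. RHBDL2 was uneven across the knockdown-labelled libraries, with replicate 2 above the others. SPINK4, a small Kazal-type inhibitor known from goblet cells, had 156, 123 and 104 reads and 0 in scramble, at least 117-fold higher. CST6, an inhibitor of cysteine proteases known from skin, had 81, 100 and 76 reads and 0 in scramble. PRSS22, a tryptase-like protease of airway epithelium, had 109, 106 and 104 reads, against 1, 1 and 0 in scramble. PRSS1, cationic trypsinogen, had 40, 35 and 29 reads and 0 in scramble, though its near-identical copies leave the assignment of its reads uncertain. The remaining genes were PI16, a secreted CAP-domain protein, CFD, which activates the alternative complement pathway, and the serpins SERPIND1 (heparin cofactor II) and SERPINA3 (antichymotrypsin). SERPIND1 had 72, 87 and 67 reads, against 0, 2 and 1 in scramble, and SERPINA3 had 21, 28 and 34 reads, against 0, 1 and 1 in scramble.

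The families around these proteases were tested on their other genes. Every family count here and below stands beside 42.8% higher and 42.9% lower over all tested genes outside the set. Of 7 tested rhomboid genes besides RHBDL2, 5 were higher and 1 lower, with the largest differences in the inactive rhomboids RHBDF2 (2.47 ± 0.06) and RHBDF1 (1.08 ± 0.06), partners of the shedding protease ADAM17. RHBDD1 was lower (-0.63 ± 0.06), and RHBDL1, nearest to RHBDL2 by name, averaged 1.71 ± 0.474 CPM under the knockdown label and 1.95 ± 0.650 CPM in scramble and did not pass. Among Kazal and Kunitz inhibitors, 2 of 2 tested genes were higher, SPINT1 (1.46 ± 0.12) and SPINT2 (0.89 ± 0.04), both inhibitors of matriptase-like proteases, and 11 other listed genes were too low to test. All 6 tested genes that share the stem CST with CST6 were higher, led in reads by CST1 (4.80 ± 0.05), CST3 (1.26 ± 0.04) and CSTB (0.21 ± 0.04). Of 11 tested cathepsin genes, 9 were higher and 1 lower, and the 3 with the most reads, CTSD (3.70 ± 0.04), CTSB (1.39 ± 0.03) and CTSZ (0.73 ± 0.03), were all higher.

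Apical membrane and junction genes numbered 5 and glycan enzymes 6. TMEM45B, a multipass membrane protein, had 157, 146 and 154 reads in the knockdown-labelled libraries, against 1, 0 and 0 reads in scramble. PROM2, a pentaspan protein of epithelial protrusions, had 146, 173 and 135 reads, against 0, 0 and 3 in scramble. CLDN11, the claudin of myelin and Sertoli cell junctions, had 44, 50 and 60 reads, against 0, 1 and 0 in scramble. AQP5, the water channel of salivary and airway glands, had 54, 49 and 49 reads, against 0, 0 and 3 in scramble, and MUC4, a membrane mucin, had 42, 34 and 33 reads, against 0, 1 and 0 in scramble. In these 5 genes, as in the whole set, the rule holds every scramble library at 3 reads or fewer. All 3 tested relatives of AQP5 were higher, AQP3 by 2.96 ± 0.14, AQP1 by 5.50 ± 0.31 and AQP11 by 3.23 ± 0.34. AQP1 stood at 6.09 without scramble replicate 3. Mucins were mixed, with MUC1 higher (3.09 ± 0.22) and MUC15 (-4.82 ± 0.29) and MUC2 (-5.83 ± 0.66) lower. MUC2 stood at -7.61 without knockdown replicate 2, which held its only read under that label.

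Barrier genes outside the set gave no single direction. Of 12 tested genes for desmosomes, cornified envelope, epithelial serine proteases and grainyhead factors, 6 were higher and 5 lower. Their median log2 fold change was 0.26. JUP, which encodes plakoglobin, averaged 98.1 ± 1.15 CPM under the knockdown label and 1.36 ± 0.686 CPM in scramble, and PPL, which encodes periplakin, 24.8 ± 1.28 and 0.0918 ± 0.125 CPM. EVPL (-1.04 ± 0.04) and PKP2 (-1.04 ± 0.05) were lower. The grainyhead factor gene GRHL1 was lower (-0.61 ± 0.19), a call that was lost without scramble replicate 2 (-0.43, adjusted p = 0.0569). PPL stood at 9.82 on the log2 scale without scramble replicate 2, against 8.0 with all libraries. The genes of the other grainyhead factors, GRHL2 and GRHL3, and all listed SPRR and KLK genes had at most 4 reads in any library.

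Among the glycan enzymes, B4GALNT4, which adds N-acetylgalactosamine to make the LacdiNAc unit, had 151, 177 and 132 reads in the knockdown-labelled libraries, against 1, 0 and 0 in scramble. B3GNT8, which builds poly-N-acetyllactosamine chains, had 136, 155 and 144 reads, against 0, 1 and 2 in scramble, and its relative B3GNT4 had 27, 31 and 38 reads, against 0, 0 and 3 in scramble. ARSI, a member of the arylsulfatase family, had 132, 158 and 158 reads and 0 in scramble, at least 137-fold higher. PIGZ, a mannosyltransferase of GPI anchor synthesis, and GBGT1, a gene of the Forssman glycolipid synthase, had no scramble reads either. Of 14 tested genes for other sulfatases and for the sulfatase-modifying factors SUMF1 and SUMF2, 11 were higher and 3 lower. This was a share of 78.6% higher beside 42.8% over all tested genes outside the set. The median log2 fold change of the 14 was 1.31, and without SUMF1 and SUMF2 9 of 12 genes were higher. SUMF1, which makes the catalytic residue of sulfatases (1.44 ± 0.08), and its paralogue SUMF2 (1.63 ± 0.04) were higher, as was STS, steroid sulfatase (1.65 ± 0.05). ARSG (-2.19 ± 0.21), ARSJ (-0.35 ± 0.05) and IDS (-0.34 ± 0.03) were lower. Among the other B3GNT genes 4 of 6 were higher and 1 lower, with B3GNT5 (1.87 ± 0.06) and B3GNT1 (1.08 ± 0.07) higher and B3GNT2 at 37.2 ± 0.121 CPM under the knockdown label and 36.3 ± 2.01 CPM in scramble.

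Metabolic genes fell into a redox and sulfur group of 10, a lipid group of 8 and 6 transporters or channels. SELENBP1, a methanethiol oxidase, had 299, 310 and 331 reads in the knockdown-labelled libraries and 0 in scramble, at least 288-fold higher, the largest such bound in the set. TSTD1, a thiosulfate sulfurtransferase, had 175, 179 and 161 reads, against 1, 0 and 0 in scramble. The 3 knockdown-labelled libraries lay close together for both genes. MB, the oxygen-binding protein myoglobin, had 111, 114 and 119 reads and GCKR, a metabolic regulatory protein of liver, 93, 98 and 118 reads, with 0 in scramble for both. The rest of the group was GPX7, an endoplasmic reticulum peroxidase, BOLA1, a mitochondrial iron-sulfur protein, COX7B2, a cytochrome oxidase subunit gene known from testis, IL4I1, an amino acid oxidase, RIMKLA, which makes N-acetylaspartylglutamate, and SEPP1, the plasma selenium carrier, between 1.01 and 2.59 CPM. Of 6 tested genes that handle sulfide, 5 were higher and 1 lower. SQRDL, the sulfide oxidase of mitochondria, was higher by 1.76 ± 0.06, MPST by 1.16 ± 0.06 and TST by 1.05 ± 0.08, and SUOX, sulfite oxidase, was lower (-0.88 ± 0.08).

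In the lipid group, C5orf4, a sterol desaturase-like gene now named FAXDC2, had 115, 126 and 112 reads in the knockdown-labelled libraries and 0 in scramble. ALOX5, the 5-lipoxygenase of leukotriene synthesis, had 101, 100 and 97 reads, against 0, 1 and 0 in scramble. Its activating protein gene ALOX5AP was higher (4.96 ± 0.76) at a low level, 0.634 ± 0.0780 CPM under the knockdown label and 0.0148 ± 0.0256 CPM in scramble. Without scramble replicate 3, which held its only scramble read, the fitted value was 6.91. PLA2G4A, the phospholipase that releases arachidonate, was lower (-2.47 ± 0.14), and so was LTA4H, a hydrolase of leukotriene A4 (-0.32 ± 0.04). ACOT4, a peroxisomal acyl-CoA thioesterase, had 98, 107 and 78 reads and 0 in scramble, and similar thioesterase genes leave part of its reads uncertain. HRASLS5, a phospholipase and acyltransferase now named PLAAT5, had 80, 65 and 67 reads, against 0, 1 and 0 in scramble. HSD3B1, a steroid dehydrogenase of placenta and skin, EPHX2, soluble epoxide hydrolase, CES4A, a carboxylesterase, and DHRS3, a retinaldehyde reductase, completed the group between 1.01 and 2.12 CPM. HSD3B7, a relative of HSD3B1 that acts in bile acid synthesis, was higher by 4.36 ± 0.09.

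The transporters were low, with a median of 1.55 CPM. SLC7A7 and SLC7A4 belong to the same amino acid carrier family. SLC7A7, the light chain of a cationic amino acid exchanger, had 93, 95 and 102 reads in the knockdown-labelled libraries, against 1, 2 and 0 in scramble, and SLC7A4 had 32, 56 and 42 reads and 0 in scramble. SLC3A2, the heavy chain that SLC7A7 pairs with, was higher by 0.63 ± 0.04. The others of the family that were tested mostly went the other way, 4 of 5 lower, among them SLC7A1 (-0.27 ± 0.03) and SLC7A6 (-0.23 ± 0.04), with SLC7A5 higher (0.39 ± 0.03). SLC1A7, a glutamate transporter of retina, had 40, 38 and 49 reads and 0 in scramble. FAM26F, a channel-family gene now named CALHM6, had 38, 41 and 24 reads, against 0, 1 and 0 in scramble, and ATP6V0D2, a proton pump subunit of osteoclasts and kidney, had 33, 32 and 24 reads, against 1, 0 and 1 in scramble. SLC30A3, the zinc loader of synaptic vesicles, had 22, 29 and 31 reads, against 0, 0 and 0 in scramble.

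Of the 6 genes of innate immunity and cell death, XAF1 had the most reads. XAF1, an interferon-induced antagonist of the caspase inhibitor XIAP, had 214, 234 and 204 reads in the knockdown-labelled libraries, against 0, 0 and 1 in scramble. XIAP was read in both groups and was higher by 0.80 ± 0.05. PYCARD, the adaptor ASC that links inflammasome sensors to caspase-1, had 130, 135 and 131 reads, against 0, 0 and 1 in scramble. Sensors and effectors around PYCARD moved both ways: AIM2 (3.28 ± 0.19), CASP1 (1.14 ± 0.24), NLRP1 (0.61 ± 0.06) and GSDMD (0.81 ± 0.12) were higher and NLRP3 (-1.04 ± 0.10) and the cytokine gene IL18 (-1.27 ± 0.33) lower, and NLRC4 had 0 reads in all libraries. The call of IL18 was lost whenever a library other than scramble replicate 3 was left out, with adjusted p between 0.0510 and 0.0644. BIK, a BH3-only inducer of cell death, had 87, 115 and 57 reads and 0 in scramble. It was the least even gene of the set over the knockdown-labelled libraries, highest in replicate 2 and lowest in replicate 3. GIMAP8, a GTPase of lymphocytes, had 27, 41 and 35 reads and 0 in scramble, and SLFN12L, a schlafen gene, and ZC3H12D, a ribonuclease-family gene of T cells, averaged 1.17 and 1.01 CPM. BCL2 (-1.60 ± 0.06) and MCL1 (-0.50 ± 0.03), survival proteins that BH3-only proteins bind, were lower and BCL2L1 was higher (0.48 ± 0.03).

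Transcription and RNA factors numbered 11, of which 6 had no scramble read. ELF3, an ETS factor of epithelium with the CpG-poor promoter printed earlier, had 143, 111 and 141 reads in the knockdown-labelled libraries, against 0, 1 and 1 in scramble. FOXA1, another factor of luminal breast epithelium, was nearly unread under the knockdown label, with 1, 1 and 2 reads there, against 480, 490 and 486 reads in scramble. Luminal markers thus went in different directions, since GATA3 was higher (1.39 ± 0.09) and KRT18 (-0.37 ± 0.03) lower. TRMT12, now named TYW2, acts in tRNA modification and had 129, 127 and 109 reads, against 0, 0 and 2 in scramble. BATF, an AP-1 factor of lymphocytes, had 82, 94 and 76 reads and 0 in scramble, and ZFP3, a zinc finger gene, 90, 70 and 74 reads, against 0, 2 and 0 in scramble. RARB, a retinoic acid receptor that is itself a retinoid target, had 39, 47 and 45 reads and 0 in scramble. Of the other retinoid receptor genes, RARA was lower (-0.79 ± 0.06) and RARG (0.21 ± 0.07), RXRA (0.51 ± 0.04) and RXRB (1.31 ± 0.04) were higher. RXRG had 1 read in each knockdown-labelled library and 0 in scramble. ALDH1A3, which makes retinoic acid, was higher (4.85 ± 0.17), CRABP2, which carries it to the nucleus, was lower (-1.87 ± 0.11), and RARRES3, a retinoid-responsive gene that shares its name stem with RARRES2, averaged 47.1 ± 1.75 CPM under the knockdown label and 0.196 ± 0.124 CPM in scramble. The remaining genes were CITED4, a transcriptional coactivator, NAP1L5, an imprinted relative of nucleosome assembly proteins, SRRM3, a splicing factor of neurons, PRDM16, a factor of brown fat, HENMT1, a methyltransferase of small RNAs in germ cells, and ZCCHC5, derived from a retrotransposon, between 1.07 and 2.83 CPM.

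Cytoskeleton genes were headed by RHOD, a small GTPase of endosome movement and actin, with 487, 519 and 491 reads in the knockdown-labelled libraries, against 0, 1 and 2 in scramble. The other 9 tested genes whose symbols share RHOD's stem were read in both groups, 6 higher and 2 lower, among them RHOA (0.16 ± 0.03), RHOC (1.38 ± 0.04) and RHOF (0.12 ± 0.05). RHOF lost its call without scramble replicate 1 (log2 fold change 0.07, adjusted p = 0.187) or without scramble replicate 3 (0.10, adjusted p = 0.0706). WHAMM, an actin nucleation factor that RHOD binds, was lower (-0.83 ± 0.08). GFAP, the intermediate filament of astrocytes, had 110, 147 and 103 reads, against 1, 0 and 1 in scramble. SEPT4, a septin with a proapoptotic isoform, had 98, 88 and 86 reads and 0 in scramble, and MAP6, a microtubule stabiliser of neurons, 93, 95 and 82 reads, against 1, 0 and 2 in scramble. KLC3, a kinesin light chain, had 88, 86 and 78 reads, against 2, 0 and 0 in scramble, and HOOK1, a dynein adaptor, 41, 47 and 57 reads and 0 in scramble. The other HOOK genes, HOOK2 (-0.45 ± 0.09) and HOOK3 (-0.18 ± 0.05), were lower. The remaining genes were ARPM1, an actin-related protein gene now named ACTRT3, ESPN, an actin bundler of stereocilia, ARHGEF25, an exchange factor of small GTPases, KIF26B, an atypical kinesin, and ACTBL2, a beta-actin-like gene.

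Trafficking, kinase and protein turnover genes formed the largest group, with 12 genes. FAM83A, a scaffold of casein kinase 1 and of growth factor signalling, had the highest mean of the set, with 500, 596 and 508 reads in the knockdown-labelled libraries, against 0, 0 and 1 in scramble. The ratio was 1472, with a 95% counting interval of 264 to 58177. Its family did not share a direction. Of 4 tested relatives 1 was higher and 2 lower: FAM83H averaged 12.2 ± 0.614 CPM under the knockdown label and 0.0883 ± 0.00559 CPM in scramble, FAM83B 0.108 ± 0.0491 and 4.17 ± 0.708 CPM, and FAM83G differed by -0.27 ± 0.05. ULK2, a kinase that starts autophagy and has the CpG-rich promoter, had 400, 394 and 387 reads, against 0, 2 and 1 in scramble. Its close relative ULK1 was read in both groups (28.9 ± 1.83 and 15.6 ± 0.311 CPM, knockdown label first) and was higher by 0.83 ± 0.07. Of the genes for other subunits of their complex, RB1CC1 was higher (0.17 ± 0.05), C12orf44, which encodes ATG101, was lower (-0.75 ± 0.05), and ATG13 did not pass (-0.05 ± 0.04). DENND2D, an exchange factor of Rab GTPases, had 196, 201 and 171 reads, against 0, 0 and 1 in scramble, and its relatives DENND2A (1.37 ± 0.08) and DENND2C (0.69 ± 0.16) were higher too. TUB, a phosphoinositide-binding protein of ciliary transport, had 154, 168 and 198 reads, against 1, 1 and 0 in scramble. KLHL3, an adaptor that hands WNK kinases to the ubiquitin ligase CUL3, had 31, 31 and 41 reads and 0 in scramble. The ligase gene CUL3 (-1.04 ± 0.04) and the kinase genes WNK1 (-1.31 ± 0.03) and WNK4 (-2.74 ± 0.13) were lower. The others, between 1.21 and 2.73 CPM, were BAIAP3, of secretory vesicles, ARL10, an ARF-like GTPase, CAMK2B, the neuronal calmodulin kinase subunit, FBXO2, a ubiquitin ligase subunit for glycoproteins, EXOC3L4, an exocyst-like gene, RPS6KA6, a ribosomal S6 kinase, and DERL3, a factor of endoplasmic reticulum degradation.

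Lectins, annexins and matrix proteins included LGALS12, a galectin known from fat cells, with 515, 557 and 523 reads in the knockdown-labelled libraries, against 0, 0 and 3 in scramble. Of 4 other tested galectin genes 3 were higher, among them LGALS1 (2.73 ± 0.04) and LGALS3 (1.43 ± 0.04), and LGALS8 was lower (-0.66 ± 0.03). COCH, a matrix protein of the inner ear, had 84, 79 and 83 reads, against 0, 0 and 1 in scramble, CHI3L2, a chitinase-like lectin, 78, 60 and 67 reads and 0 in scramble, and ANXA10, an annexin of gastric epithelium, 54, 46 and 38 reads, against 0, 1 and 1 in scramble. ANXA8L2 had 29, 36 and 45 reads, against 0, 1 and 0 in scramble, but it is a near-identical copy of other annexin A8 genes and its reads cannot be placed with certainty.

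Placental and germ-line genes numbered 5, and 3 of them came from the pregnancy-specific glycoprotein cluster. PSG9 had 101, 114 and 78 reads in the knockdown-labelled libraries, against 2, 1 and 0 in scramble. PSG5 had 60, 70 and 69 reads, against 1, 2 and 0 in scramble, and PSG1 had 40, 30 and 41 reads and 0 in scramble. PSG4, the family's single other tested gene, had 72, 70 and 76 reads, against 2, 5 and 1 in scramble (4.53 ± 0.35, and 5.35 without scramble replicate 2), and PSG7, too low to test, had 18, 8 and 19 reads and 0 in scramble. These genes resemble one another closely, so the split of reads between them is uncertain, while their reads as a family were all but absent from scramble. PAGE5, a cancer-testis antigen, had 109, 90 and 65 reads, against 0, 1 and 0 in scramble, and ALS2CR11, a sperm flagellum gene now named CATSPERT, 101, 80 and 93 reads, against 0, 1 and 1 in scramble.

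The last 14 genes were noncoding, little characterised or listed by an identifier. C1orf115 had 111, 87 and 97 reads in the knockdown-labelled libraries, against 0, 1 and 0 in scramble. TLR8-AS1, an antisense RNA of the endosomal receptor gene TLR8, had 78, 79 and 67 reads, against 0, 0 and 1 in scramble, and TLR8 had 1 read in all 6 libraries together. C2orf55, C3orf55, C6orf223 and FKBP9L, the last a pseudogene similar to FKBP9, averaged between 1.003 and 1.28 CPM. In the deposited counts 8 genes stand under an identifier in place of a gene name, and RefSeq has a name for each of them. LOC285972, now named LINC00996, had 159, 161 and 178 reads, against 0, 1 and 1 in scramble. LOC152742, now named LINC01085, had 117, 104 and 127 reads, against 0, 1 and 0 in scramble. Symbols were left out as deposited, so RNAs now named LINC stayed in the set under such identifiers. RefSeq lists 120 of the 131 genes as protein coding, 7 as long noncoding RNA and 3 as transcribed pseudogenes, and 1 was not matched.

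**Figure D4:**
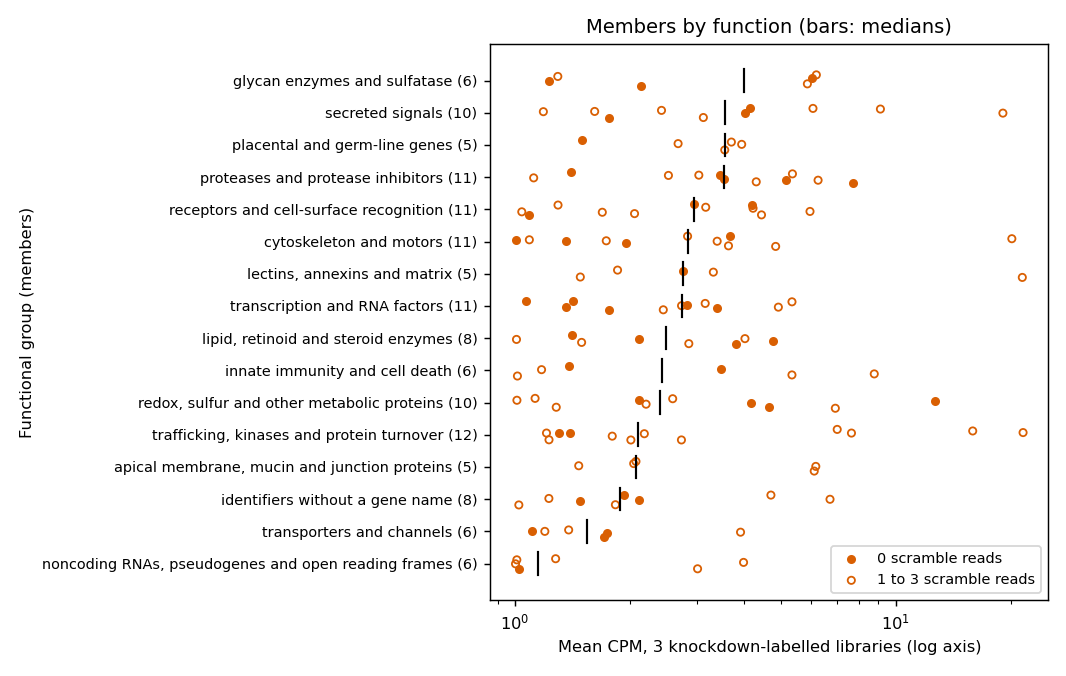
Mean CPM over the 3 knockdown-labelled libraries (log axis) of each of the 131 members, by functional group with the number of genes in brackets. Filled points had 0 scramble reads, open points 1 to 3, and black bars are group medians. The medians run from 1.15 CPM for noncoding RNAs and open reading frames to 3.99 CPM for glycan enzymes, and the 6 genes above 10 CPM are spread over 5 groups.

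Per length of transcript the order of the best-read genes changed. On CPM divided by the length in kilobases of the longest GENCODE transcript (RPKM), RHOD was first at 17.9 under the knockdown label, followed by LGALS12 at 11.8, RARRES2 at 10.0, SPINK4 at 9.68, TSTD1 at 8.53 and EDN2 at 7.34. FAM83A, first in reads, stood at 4.0 and ULK2 at 2.65, since their transcripts are long. The spread of the members among the knockdown-labelled libraries was somewhat above sampling noise. The median over the genes of the chi-square per degree of freedom among the 3 libraries was 0.896, where sampling noise alone gives a median of 0.693, and 8.40% exceeded 3, where noise alone gives 5%. Among 4287 other genes of the same range of levels the median was 0.977 and 13.2% exceeded that value. Levels were not matched within that range, so no difference between the sets is read from these values. The highest values in the set belonged to BIK at 8.30, SPINK4 at 5.54, PAGE5 at 5.37 and RHBDL2 at 5.35.

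The choice was repeated with 1 library of each group held out, in all 9 combinations, with at most 2 reads over the remaining scramble libraries. Each choice gave 126 to 143 genes. Between 69.5% and 79.1% of them also met both conditions in the held-out libraries, at most 1 read in the scramble library and at least 1 CPM in the knockdown-labelled one. The held-out libraries carry the same labels and may be technical repeats of the others. These shares therefore describe evenness among libraries and are no replication.

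Relatives of the 131 genes that are no members themselves were taken by symbol stem, which gave 370 genes, 213 of them tested. Of these, 111 (52.1%) were higher and 72 (33.8%) lower in the knockdown-labelled libraries. The median log2 fold change of the 213 was 0.21. Over all tested genes outside the set, 42.8% were higher and 42.9% lower, and the median was -0.0030. Without 14 symbols that share letters but no family, 109 of 202 were higher and 66 lower. Single families had counts of their own. All 6 tested genes of the CST stem and all 6 of the CXCL stem were higher. In the PRDM stem around PRDM16, 8 of 10 were lower and 1 higher, among them PRDM8 (-1.39 ± 0.05), and in the TRMT stem around TRMT12, 4 of 5 were lower and none higher, among them TRMT6 (-1.89 ± 0.07). The tumour necrosis factor family around TNFSF13 had 4 of 6 higher, with TNFSF15 (5.52 ± 0.13) and TNFSF10, the death ligand TRAIL (8.25 ± 0.12, and 8.87 without scramble replicate 2), at the top in reads. VSTM1, a relative of VSTM4 by name, had 11, 6 and 7 reads under the knockdown label, against 464, 400 and 431 reads in scramble. Of 99 textbook partners of the members (receptors, ligands, complex subunits and enzymes of the same step), 75 were tested, 39 higher and 33 lower, and the median was 0.21.

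**Figure D5:**
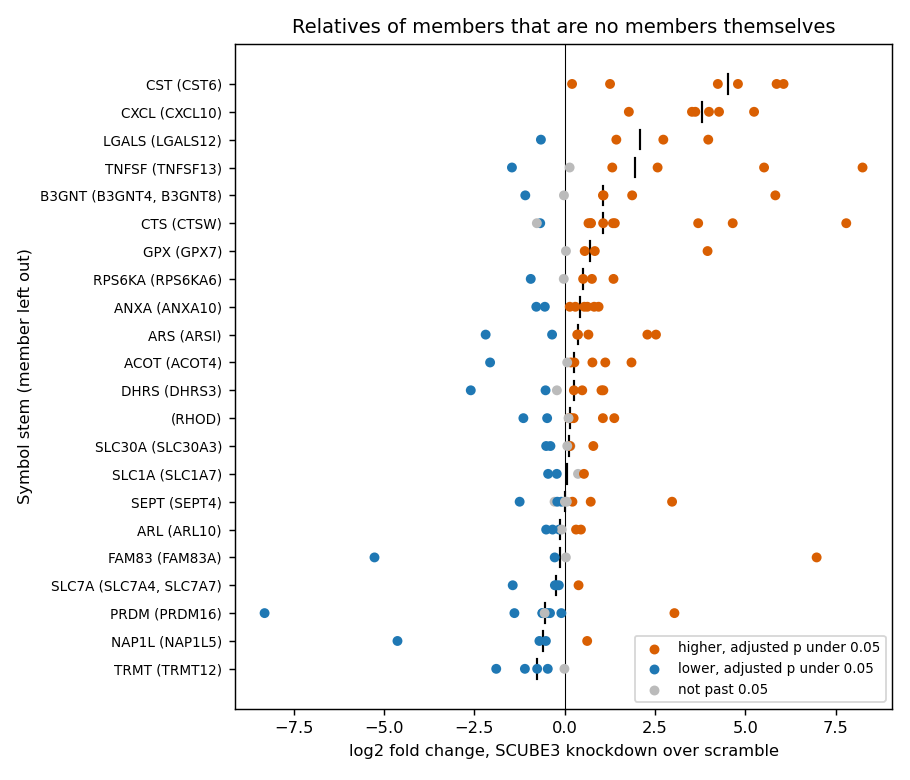
Each point is the log2 fold change (SCUBE3 knockdown over scramble) of a tested gene that shares its symbol stem with a member, for stems with 4 or more such genes. The member or members, left out of the row, are in brackets (the row of RHOD is marked by that gene alone), and black bars are medians. Orange points were higher and blue points lower at an adjusted p under 0.05, and grey points did not pass. The CST and CXCL rows lie wholly to the right of 0, and the TRMT row holds no orange point.

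By position, members stood on 20 of the 23 chromosomes that hold genes of the table other than Y, according to RefSeq's annotation, which was used for names and order only. Chromosome 1 held 23 of 130 placed genes, 17.7% beside 10.0% of all genes in the table, and chromosome 11 held 11, 8.46% beside 6.20%. Chromosomes 13, 15 and 18 held none. In 3 places members were nearest neighbours: DENND2D and CHI3L2 on chromosome 1, HRASLS5 and LGALS12 on chromosome 11, and LOC285972 and GIMAP8 on chromosome 7, with RARRES2 3 listed genes away from LOC285972. The genes between RARRES2 and LOC285972 were read in both groups and were higher under the knockdown label, REPIN1 by 0.64 ± 0.04 and ZNF775 by 1.41 ± 0.15, with LOC728743 higher as well (1.69 ± 0.23). MMP24 and GDF5 on chromosome 20 lay with 3 listed genes between them, of which EIF6 was higher (0.63 ± 0.05), UQCC was lower (-0.36 ± 0.04) and FAM83C was too low to test. CITED4, EDN2 and RIMKLA on chromosome 1 were 4 listed genes apart in each step, and the genes between EDN2 and RIMKLA included HIVEP3, higher by 1.24 ± 0.06, and FOXJ3, which was lower (-0.69 ± 0.04). The 254 nearest neighbours that are no members held 156 tested genes, of which 90 (57.7%) were higher and 45 (28.8%) lower. Over all tested genes outside the set, these shares were 42.8% and 42.9%. Without those that overlap a member, 85 of 142 (59.9%) were higher. In all, 26 members overlap a nearest listed gene, for example CTSW with FIBP, KLC3 with ERCC2, RARB with TOP2B and SERPIND1 with PI4KA. The sources used here do not state whether HTSeq counted by strand, and reads in such overlaps cannot be assigned with certainty.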

How the data were processed

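Polyadenylated RNA of 6 MDA-MB-231 libraries, 3 labelled SCUBE3 knockdown and 3 scramble, was sequenced as single reads of 50 bases with a stranded mRNA kit, per the labels' protocols. The submitters' processing notes name the tools bcl2fastq, TopHat2 (2.0.8b) and HTSeq and the build hg19, while HTSeq's strand setting is not given in the sources used here. What the authors deposited is a whole-number read count for each gene symbol in each library, without normalization. HTSeq's lines on unassigned reads were left out.

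Samples were grouped by title. CPM use the library total in genes. The 13606 genes that passed filterByExpr entered a two-sided, robust quasi-likelihood F test in edgeR 4.0.16 under R 4.3.3, with TMM factors and no term but group. Calls are at a Benjamini-Hochberg adjusted p under 0.05. Dividing the log2 fold change by the square root of its F gave its SE. Ratios of a gene with 1 to 3 scramble reads carry an exact 95% counting interval, and bounds use a floor of 3 reads over the group. Both rest on reads summed over the libraries of a group, without allowance for the choice of genes by these reads. The bounds also leave out the counting error of the knockdown-labelled reads. For the tests no libraries were merged, as those of a group differed by more than counting noise (chi-square over its degrees of freedom between 1.69 and 3.55). The counting intervals, which use summed reads, leave this spread out and may be too narrow. Same-numbered libraries did not deviate together (r between -0.0021 and 0.0777 across genes), so the replicate number served as a block in an alternative only. The fit was also run on simulated counts of 13522 genes for this comparison. It called 62% of changed genes for a 1.2-fold change, 90% for 1.5-fold, 94% for 2-fold and 100% for 4-fold. Of its calls there 1.7% were false. Each fold was given to 50 genes, all upward, and all genes shared a single dispersion. In the data 85.9% of tested genes passed, in both directions, so the simulated rates need not hold there.

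The 131 genes, their functional groups, the lists and the partners were chosen with earlier results of these data known, and no p-value is given for the 131 genes, since the same contrast chose them. Named in full are the 12 genes with the highest mean CPM, up to 4 per functional group, families with 2 or more genes and the genes nearest each limit. The rest of the set is named with its group, and genes deposited under an identifier in place of a name are counted beyond 2. Outside the set, up to 3 relatives per family by mean CPM and up to 4 genes per list by adjusted p were named, besides partners, markers and neighbours, some chosen after their values were seen. Relatives share a symbol stem held by 2 to 15 genes. RefSeq (GRCh38.p14) matched 130 of the 131 genes, 22 under another symbol, and gave order, names and promoters. GENCODE gave transcript lengths. Some listed genes are not reported here. Alternatives were other scalings, no filter, DESeq2 1.42.0, a threshold of 0.01, each library left out, other limits of the rule, another background for promoters and, added after seeing the data, relatives without letters-only matches.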

Additional observations from a re-analysis of the deposited data

How the results depend on the processing

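The number of genes in the set depends on its limits: 45 genes had 0 scramble reads, 232 met a limit of 10 scramble reads, and 79 had a mean of at least 2 CPM, whereas leaving out 1 library gave 126 to 145. The share of CpG-rich promoters used as background was 81.2% with genes of at least 1 CPM in 3 libraries. SCUBE3 changed sign without scramble replicate 3 (-0.0503, adjusted p = 0.764 by edgeR) and ranged from -0.0503 to 0.0796 over the fits that each left out 1 library. Over those fits 11450 to 11630 genes passed, 107 to 113 relatives were higher and 70 to 73 lower, and 10 to 12 epithelial barrier genes passed. B3GNT2, which did not pass, changed sign with library totals (0.0334) and without scramble replicate 1, with a range from -0.0596 to 0.0218 over the same fits. ATG13, which did not pass, changed sign with library totals (0.0047). RHBDL1, which did not pass either, changed sign without scramble replicate 3, with a range from -0.4078 to 0.0540. Of 1276 values of 116 named genes outside the set under the alternatives, 1264 kept direction and side of the threshold, and the call was lost in 8, 5 of IL18, 2 of RHOF and 1 of GRHL1; the cause was not tested.

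With the replicate number as a block, 11706 genes passed instead of 11681, 112 relatives were higher and 73 lower, and SCUBE3 stood at 0.0245. The labels do not say that equal numbers mark a shared culture or day, so the numbers were not taken to pair the libraries.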
